A study of Mus musculus with 48 samples.

Results

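Gm42418, CT010467.1, Lars2, Gm15564 and ENSMUSG00000089855 are 5 genes selected on very high counts in single libraries, out of 48440 genes in the count table. The members were chosen by these same counts, so their heights in the libraries where they peak are given as a description, with no test. The counts came from the amygdala of 48 male C57BL/6 mice (C57BL/6N in the study's methods) aged 4 months, 1 library per mouse and 8 mice in each of 6 groups. The groups were Tph2+/+ (wild-type), Tph2+/- (heterozygous) and Tph2-/- (knockout) mice, all offspring of Tph2+/- parents, either not separated, as control (C), or separated from the dam for 3 h per day from postnatal day 2 to 15 (MS, maternal separation). Tph2 encodes the enzyme that makes serotonin in brain neurons, and the inactivation was constitutive and not limited to a chosen cell type. Separation was applied to whole litters, the males went through behavioral tests as adults, and the amygdalae of both hemispheres of a mouse were combined.

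Ribosomal RNA (rRNA) is by far the most abundant RNA of a cell. Its 18S part belongs to the small ribosomal subunit and its 28S part to the large one, both cut from 1 long precursor that RNA polymerase I transcribes from repeated genes. Total RNA libraries therefore remove rRNA before sequencing, and copies of rRNA sequence that lie inside other annotated genes can take up reads that remain. mt-Rnr1 and mt-Rnr2 are the rRNA genes of the mitochondrion. Lars2, the only protein-coding member, encodes the mitochondrial leucyl-tRNA synthetase, which loads leucine onto its tRNA.

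Gm42418 and CT010467.1 lie on opposite strands of 1 stretch of chromosome 17 in GRCm38. Gm42418 (ENSMUSG00000098178) is annotated as a lincRNA with 1 exon at chr17:39846958-39848788 on the plus strand. CT010467.1 (ENSMUSG00000106106) is annotated as rRNA at chr17:39846353-39848827 on the minus strand. Of the 1831 exon bases of Gm42418, 1822 face exons of CT010467.1. The first transcript of CT010467.1 faces 1244 of them in 1 run. As opposite strands of the same DNA, the facing bases are complementary by position. RefSeq lists the pseudogene Rn18s-rs5, an 18S-related sequence with Gm42418 among its synonyms, over 1849 bases here, which hold 68.0% of the Gm42418 exon. The stretch around the point where the first CT010467.1 transcript starts is shown because it holds the sequence both genes share. Capitals mark the bases of Gm42418 that face this transcript, and lower case marks the bases beyond it.
Gm42418, chr17:39848142-39848261, plus strand: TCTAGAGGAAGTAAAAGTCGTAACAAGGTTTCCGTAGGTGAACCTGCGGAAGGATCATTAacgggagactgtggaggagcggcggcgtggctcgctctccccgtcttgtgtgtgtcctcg
CT010467.1, chr17:39848142-39848201, minus strand: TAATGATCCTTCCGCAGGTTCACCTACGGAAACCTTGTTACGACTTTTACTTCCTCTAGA
From general knowledge of rRNA, the capitals of Gm42418 read as the conserved 3′ end of 18S rRNA in its sense direction, and CT010467.1 reads as the antisense. No 18S or 28S reference sequence was compared here. Another gene, AY036118 on the minus strand, has all of its 923 exon bases inside exons of CT010467.1 and was at 0 in all 48 libraries.

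**Figure D1:**
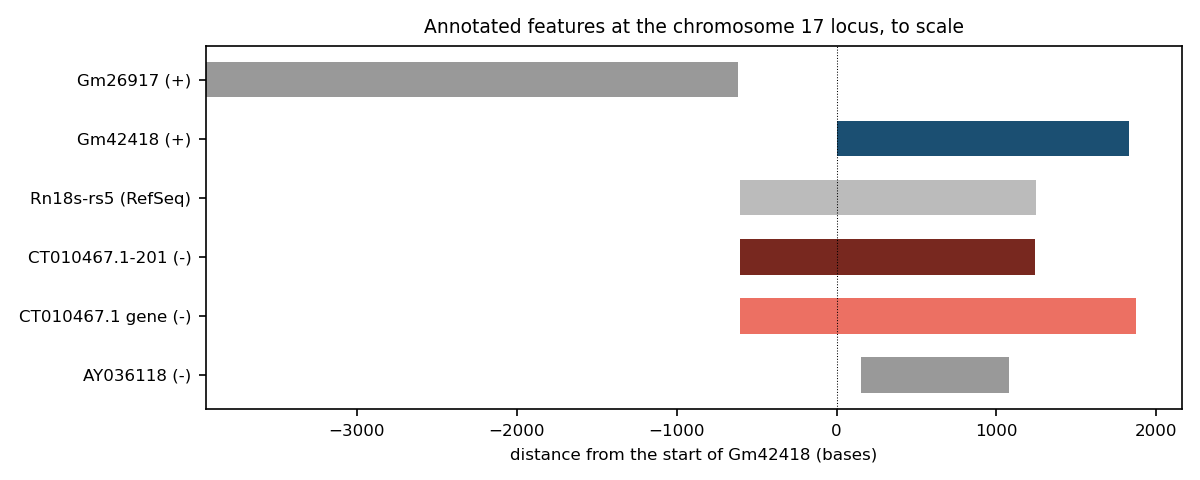
Annotated features at the chromosome 17 locus, drawn to scale, with the distance from the start of Gm42418 in bases on the x axis and 1 bar per feature. The bars of Gm42418 and CT010467.1 overlap on opposite strands, and the bar of AY036118 lies wholly inside that of CT010467.1.

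Lars2 (ENSMUSG00000035202, chr9:123366927-123462666, plus strand) and Gm15564 (ENSMUSG00000086324, chr16:35966752-35983230, minus strand, annotated as antisense) share a stretch of sequence although they lie on different chromosomes. The longest identical run was 52 bases. In Lars2 it lies at chr9:123462048-123462099, in exon 21 and in the 3′ UTR, beginning 373 bases after the last coding base. In Gm15564 it fills most of exon 2 of 1 of its transcripts (chr16:35981725-35981795), whose 71 bases matched Lars2 with 1 mismatch. A run of 30 of these bases is shown because both genes carry it, and all are in capitals since all match.
Gm15564 (chr16:35981765-35981794, minus strand) and Lars2 (chr9:123462050-123462079, plus strand): ATTCACCAAGCGTTGGATTGTTCACCCACT
From the same general knowledge, and likewise not compared with a reference, this run reads as part of 28S rRNA. Among 141767 GENCODE M21 transcripts, these 30 bases occurred in 3 genes, the other one being AA474408 on chromosome 7, which shared 41 bases with Lars2.  ENSMUSG00000089855 is in the count table, and its position and sequence were not analysed here. 

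A placed pair is used here for a read pair with 1 unique position, on a gene, on no feature or on more than 1 feature, and CPM stands for counts per 1000000 placed pairs. The libraries held between 23759782 and 35264808 placed pairs, of which 97.5% in the median library fell on no annotated feature, and between 609489 and 6296568 counts on genes. The labelled tissue was checked on its markers, which were low: the neuronal gene Snap25 had a median of 8 counts, the amygdala markers Prkcd and Sst had medians of 0 and Lmo3 one of 13, and the 4 hemoglobin genes had no count. The highest medians among the markers of the cell types listed were 135 counts for Csf1r of microglia and 84 for Kcnj13 of the choroid plexus, whose other markers had medians of 0 to 9 and 0 to 2. On the mitochondrial genome, mt-Nd6, the protein gene of the minus strand, had a median of 264 counts, and of the 12 protein genes of the plus strand 6 never passed 2 while the other 6 had medians of 206 to 944. The strand setting of the counting is not given in the sources used here, so whether a count stands for the sense or the antisense RNA of a gene was not tested. The summed neuronal markers ranged from 0.463 to 2.34 CPM in the 42 libraries described next as low and from 0.325 to 2.36 in the other 6.

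Gm42418 was low in 42 libraries and extremely high in 6. In Tph2+/+ C it reached 4569582 counts in replicate 1 and 43369 in replicate 2. In Tph2+/- C, replicate 2 held 4492836 counts. In Tph2-/- C, replicate 1 held 903823 and replicate 2 held 72131 counts. Among the MS mice a single library stood apart, Tph2+/+ MS replicate 2 with 565653 counts. All other libraries lay between 126 and 931 counts, so that a gap of 41.6-fold in CPM separated the lowest of the 6 from the highest of the 42. In Tph2+/+ C replicate 1 this single gene took 17.50% of all placed pairs (exact Clopper-Pearson 95% interval 17.49 to 17.52, counting error only), against 0.1360% in replicate 2 of the same group (0.1347 to 0.1373).

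Of the 6 high libraries, 5 were controls and 1 was MS. The 5 controls among them carried low ID numbers in the labels. Of the 6 lowest ID numbers among the 48 mice, 16, 17, 18, 19, 28 and 29, all but number 18 (Tph2+/- C replicate 1, 22.7 CPM) belonged to high libraries. The labels do not say what these numbers stand for, and their part in the counts was not tested.

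**Figure D2:**
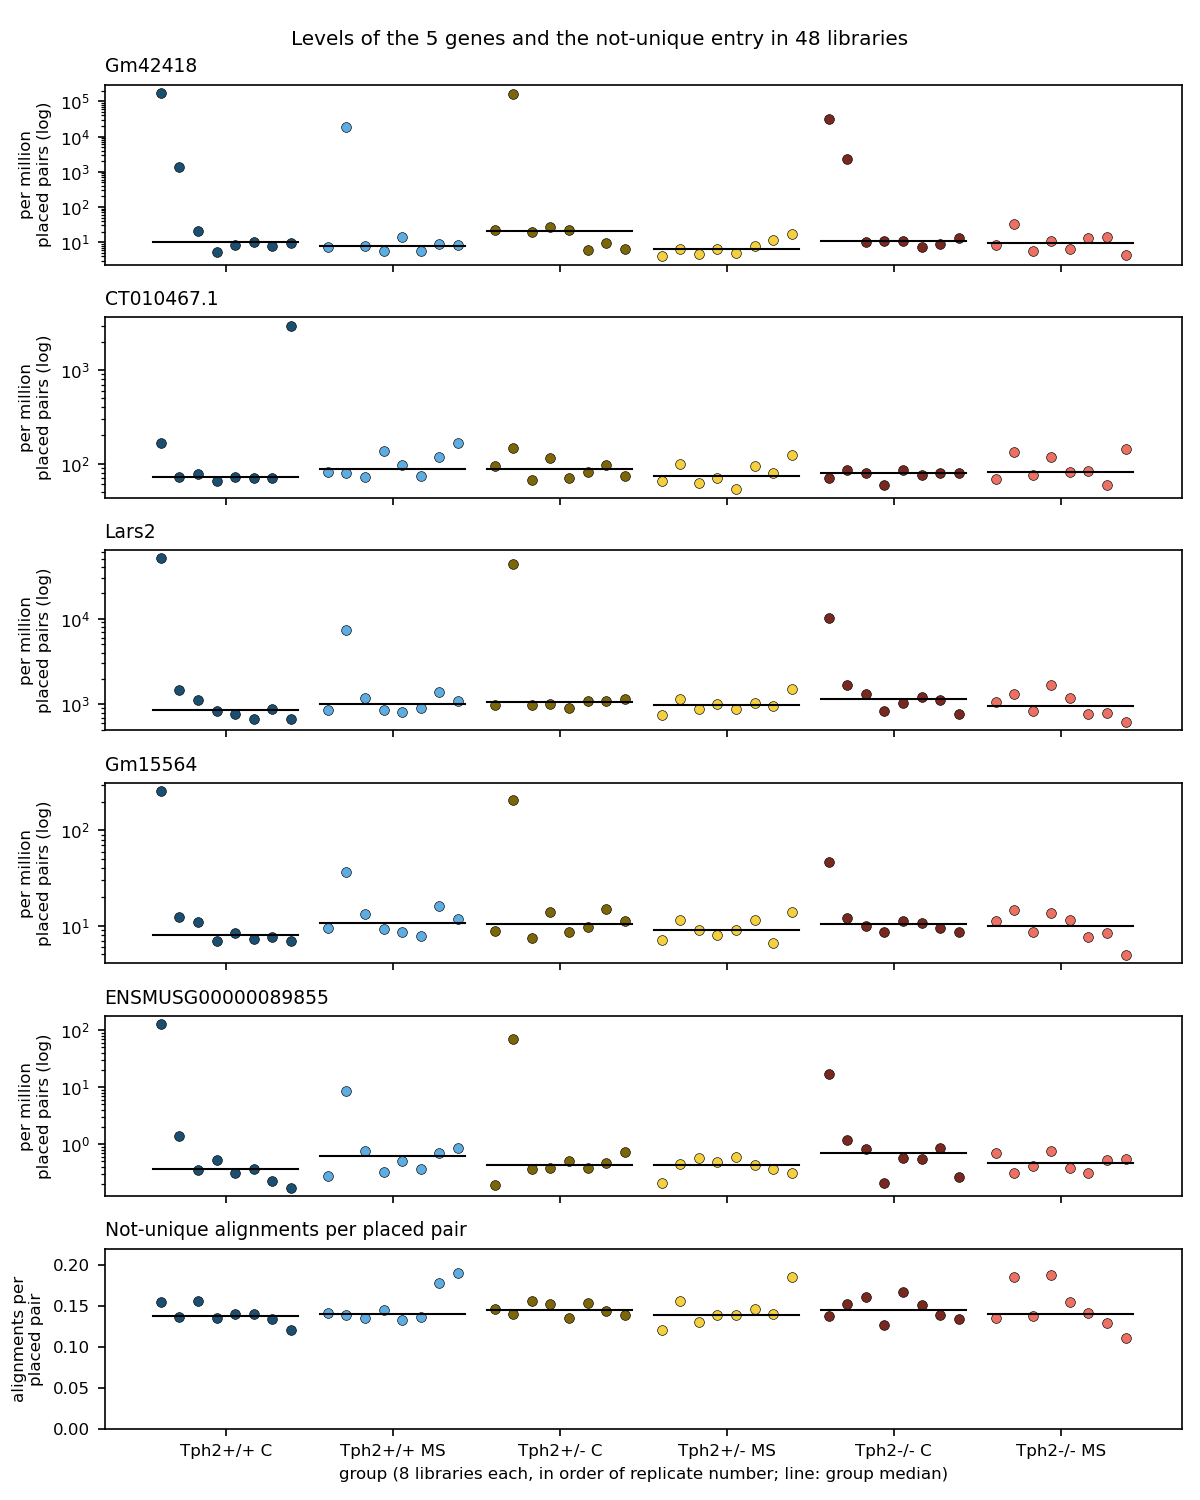
Each point is 1 library, placed by group and replicate number on the x axis. The upper 5 panels give CPM on a log axis, the lowest panel gives not-unique alignments per placed pair, and lines are group medians. Gm42418 spans 3.97 to 175030 CPM, and CT010467.1 has its single peak of 3005 in Tph2+/+ C replicate 8, where no other member is high.

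In CPM, the median of Gm42418 in wild-type mice was 9.84 (C) and 7.87 (MS). It was 21.5 (C) and 6.61 (MS) in heterozygous mice and 10.8 (C) and 9.83 (MS) in knockout mice. The lowest libraries were alike in all groups, between 3.97 in Tph2+/- MS and 7.42 in Tph2-/- C. The highest were 175030, 18204, 162267, 17.4, 30889 and 32.7 in the same order as the medians. The groups thus overlapped throughout, and the mean of Tph2+/+ C, which 1 library dominated, was 22057 ± 61812 (SD, n = 8).

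Lars2 was abundant in every library and followed Gm42418 in the high ones. In the 42 low libraries it held between 17873 and 48995 counts, with a median of 981 CPM. It reached 1307622 counts in Tph2+/+ C replicate 1 and 1185526 in Tph2+/- C replicate 2, 51.1-fold and 43.7-fold above that median. The next libraries were Tph2-/- C replicate 1 with 295482 counts and Tph2+/+ MS replicate 2 with 229998. In the last 2 of the 6, Lars2 was near the range of the others, with 51465 counts in Tph2-/- C replicate 2 and 46382 in Tph2+/+ C replicate 2. Group medians lay between 862 CPM in Tph2+/+ C and 1160 in Tph2-/- C, and the lowest and highest libraries in wild-type mice were 675 and 50086 (C) and 810 and 7402 (MS). In heterozygous mice they were 910 and 42817 (C) and 757 and 1523 (MS), and in knockout mice 769 and 10098 (C) and 619 and 1699 (MS).

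Lars2 did not behave like the other enzymes of its kind. In CPM per kilobase of exon, its median level was 92.1, against 1.61 for Hars2 and 1.29 for Iars2, the histidyl and isoleucyl enzymes, which came next among the 17 mitochondrial aminoacyl-tRNA synthetases. None of the 16 others lay above its own range of the 42 low libraries in any of the 6 high ones, and their summed level was 10.9 to 21.4 CPM there, against 17 to 25.2 in the 42. Limd1, the next gene after Lars2 on chromosome 9, stayed between 7 and 38 counts in all 48 libraries.

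Gm15564 repeated the pattern of Lars2 at a lower level. It held 6715 counts in Tph2+/+ C replicate 1, 5793 in Tph2+/- C replicate 2, 1375 in Tph2-/- C replicate 1 and 1127 in Tph2+/+ MS replicate 2, against 142 to 455 in the 42 low libraries. Tph2-/- C replicate 2 and Tph2+/+ C replicate 2, with 370 and 392 counts, lay within that range. Its group medians ran from 7.95 CPM in Tph2+/+ C to 10.7 in Tph2+/+ MS. The genes that overlap it on the opposite strand were low throughout, Parp9 with 4 to 24 counts and Kpna1 with 0 to 13.

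ENSMUSG00000089855 was the rarest member. It had 5 to 28 counts in the 42 low libraries and lay above them in all 6 high ones, with 3314, 1948, 498, 265, 36 and 44 counts in order of falling Gm42418. Its group medians were between 0.363 and 0.691 CPM, where 3 counts correspond to 0.0851 to 0.126. The low values rest on few reads.

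CT010467.1 went its own way. Although it faces Gm42418 over nearly the whole of its exon, its counts in the 6 high libraries, 2026 to 4330, lay among those of the other 42, which were 1525 to 4903 apart from 1 peak. In the 2 highest Gm42418 libraries it had 166 and 146 CPM, which is 2.09-fold and 1.85-fold the median of 79.3 and the third and the fourth highest of all 48. Its peak of 87745 counts was in Tph2+/+ C replicate 8, where Gm42418 had 275, Gm15564 200 and ENSMUSG00000089855 5 counts, the latter the lowest of all libraries. The next highest library held 4903 counts, a gap of 18.1-fold in CPM. In that library the entry for ambiguous pairs, which overlap more than 1 feature, was also the highest, 39986 against 8080 to 14498 in the others. mt-Rnr1 had its highest value there as well, 83 counts against a median of 19. Group medians of CT010467.1 lay between 71.1 CPM in Tph2+/+ C and 88.2 in Tph2+/+ MS.

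Gm42418 lies almost wholly opposite CT010467.1. Only 9 exon bases of Gm42418 do not face an exon of CT010467.1 in GENCODE M21. Whether pairs here were counted with regard to strand was not tested. In the 4 highest Gm42418 libraries the ambiguous entry held 8080 to 11241 pairs, against 8355 to 39986 in the 42 low ones.

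In the high libraries, the excess of each member over its median in the 42 low libraries was set against the excess of Gm42418. For Lars2 the ratio varied little in the 4 highest libraries. Per 1000 extra Gm42418 pairs there were 281 extra Lars2 pairs in Tph2+/+ C replicate 1. The value was lowest in Tph2+/- C replicate 2, at 258, and highest in Tph2+/+ MS replicate 2, at 353. Over these libraries the excess of Gm42418 itself fell from 175021 to 18195 CPM. In Tph2-/- C replicate 2 and Tph2+/+ C replicate 2 the ratios were 299 and 351. Lars2 was at 1683 and 1455 CPM there, within the 619 to 1699 of the 42 low libraries, so these 2 ratios say little. Gm15564 gained 1.23 to 1.49 pairs per 1000 in the 4 highest libraries, and ENSMUSG00000089855 0.431 to 0.723. CT010467.1 gained 0.494 and 0.414 per 1000 in the 2 highest libraries and lay below its median in 3 of the other 4. These values describe the libraries that chose the genes and have no test.

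**Figure D3:**
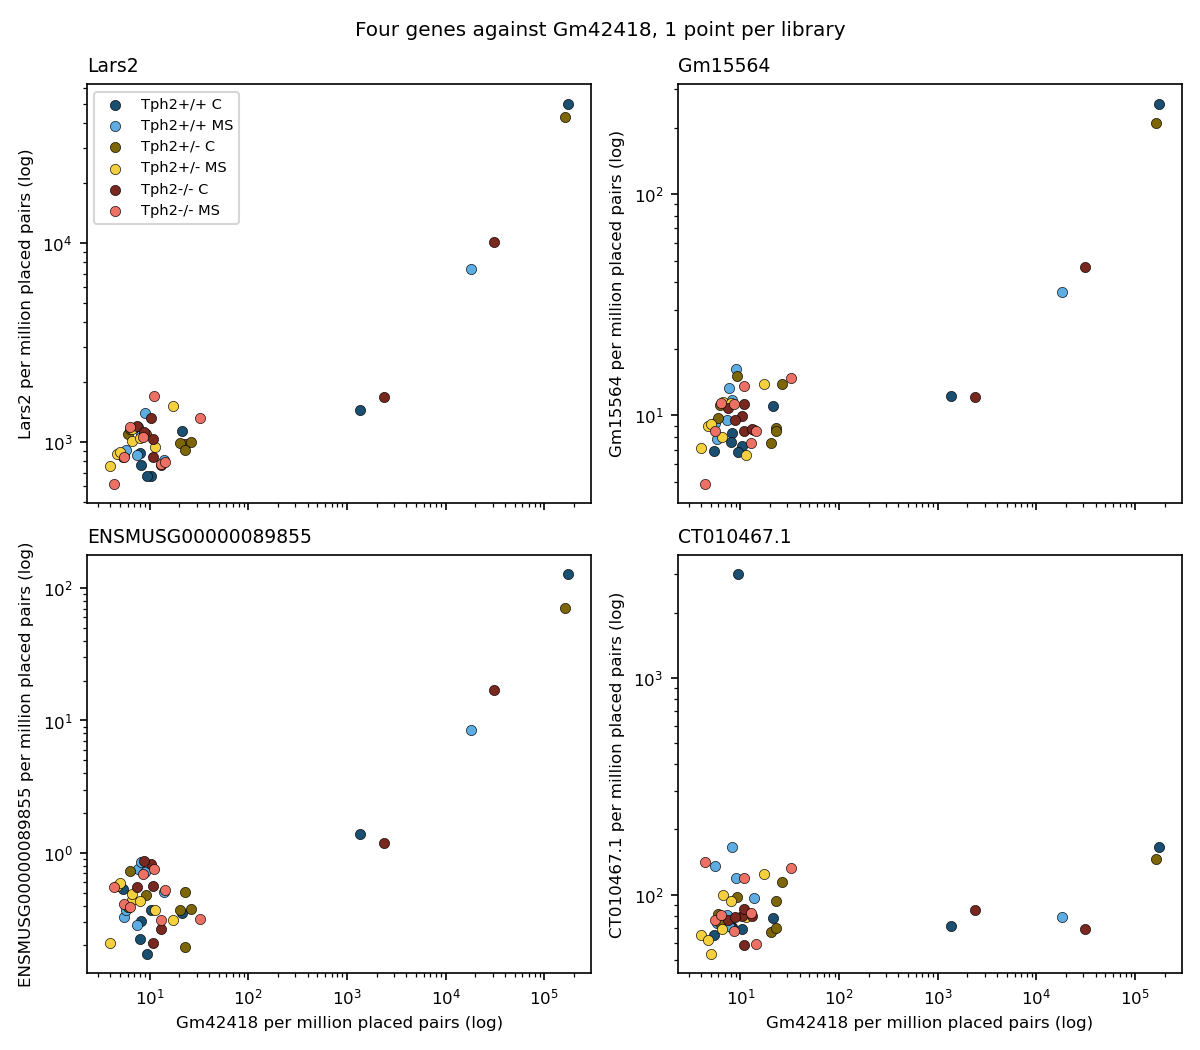
CPM of 4 genes (y axis) against those of Gm42418 (x axis), both on log axes, with 1 point per library colored by group. Lars2, Gm15564 and ENSMUSG00000089855 rise with Gm42418 over the highest libraries, where Lars2 goes from 7402 to 50086, and the peak of CT010467.1 stands at a low Gm42418 value.

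The make-up of the 2 highest libraries differed from that of the others. The members took 93.6% of all gene counts in Tph2+/+ C replicate 1 and 92.9% in Tph2+/- C replicate 2, against a median of 4.54% over all 48. Pairs on no feature fell to 75.8% and 77.8% of placed pairs in these libraries. All genes other than the members together held 15513 and 15819 CPM there, and 21951 to 26817 in the 42 low libraries. With the members' own pairs left out of the denominator they still held less, 20034 and 19910 against 22032 to 26859.

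What the entry for alignments that were not unique showed in the high libraries depended on the denominator. Per placed pair it did not stand out in them. It held 0.138 to 0.155 alignments per placed pair in the 4 highest Gm42418 libraries, with a median of 0.140 both in the 6 high and in the 42 other libraries, whose range was 0.111 to 0.191. Placed pairs include those of the members, however. Per placed pair outside the members it was 0.200 in Tph2+/+ C replicate 1 and 0.178 in Tph2+/- C replicate 2, against 0.111 to 0.192 in the 42 low libraries, and 0.137 to 0.154 in the other 4. Per count on other genes it was 9.99 and 8.93 in these 2 libraries, above the 4.76 to 7.36 of the 42. Whether this entry counts a pair once or once per alignment is not given in the sources used here. The 5 highest values, 0.178 to 0.191, were all in MS mice: replicates 7 and 8 of Tph2+/+ MS, replicate 8 of Tph2+/- MS and replicates 2 and 4 of Tph2-/- MS. In these 5 libraries Gm42418 was between 8.13 and 32.7 CPM. Group medians were 0.138 (C) and 0.141 (MS) in wild-type, 0.146 (C) and 0.140 (MS) in heterozygous and 0.145 (C) and 0.140 (MS) in knockout mice. None of 9 pairs of groups passed the threshold (exact permutation test of U, two-sided, smallest p = 0.195, adjusted p = 1 for all 9).

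Among the 42 low libraries Lars2 and Gm15564 varied together. Spearman's rho was 0.81 and Pearson's r of the log2 values 0.82 (both p = 1e-05, the smallest that 100000 permutations can give, adjusted p = 7.50e-05 and 5.00e-05 over 15 relations). Without the 2 libraries farthest from the median of Lars2, r was 0.79. Ranked within the 6 groups, rho was 0.76. Both carry the 30 bases printed above, which AA474408 also holds.

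Both genes also rose with the not-unique entry in these 42 libraries. For Lars2 rho was 0.72 and r was 0.80 (adjusted p = 7.50e-05 and 5.00e-05 by permutation), and for Gm15564 rho was 0.65 and r was 0.73 (adjusted p = 1.00e-04 and 5.00e-05). Without the 2 libraries farthest from the median of the gene, r was 0.74 and 0.65. The 5 libraries with the most not-unique alignments stand apart from the rest, and without them rho was 0.64 for Lars2 and 0.53 for Gm15564 (adjusted p = 2.25e-04 and 0.00460 by permutation). Within the 6 groups rho was 0.57 and 0.58.

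**Figure D4:**
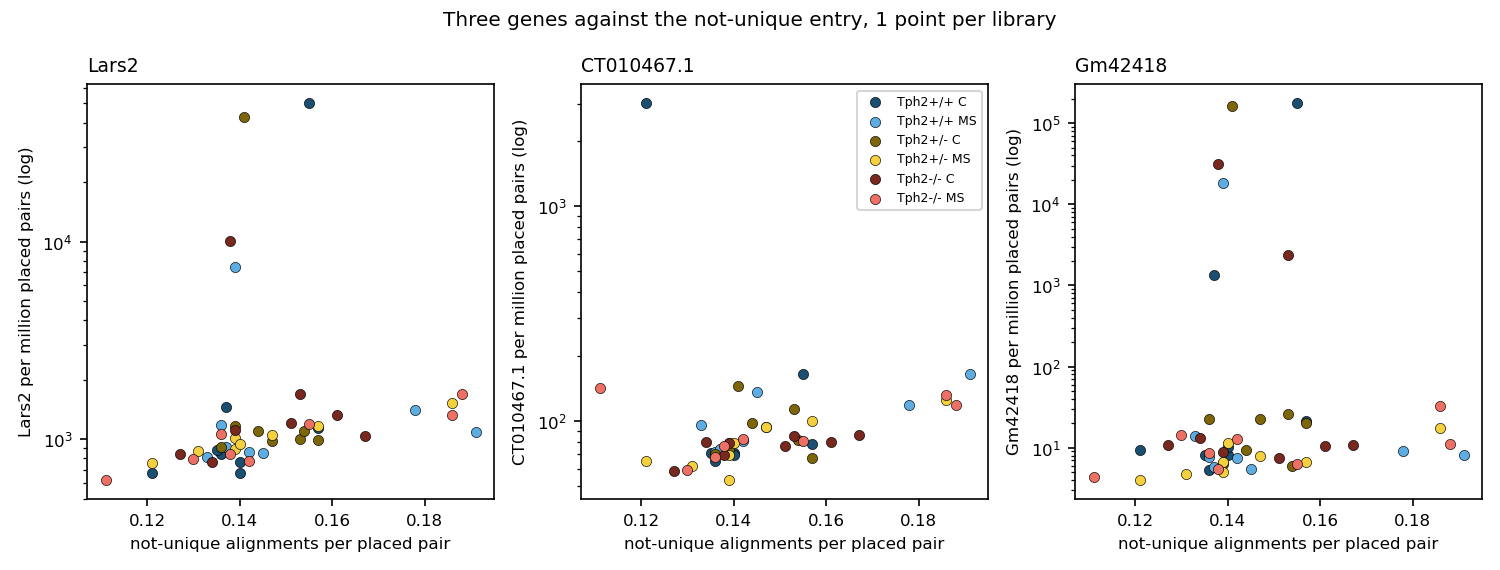
CPM of Lars2, CT010467.1 and Gm42418 (y axes, log) against not-unique alignments per placed pair (x axis), with 1 point per library colored by group. The high Gm42418 libraries sit at 0.137 to 0.155 on the x axis, and the 5 libraries above 0.17 are MS mice with Lars2 in the upper part of its low range.

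CT010467.1 was compared over 41 libraries, without its peak. It varied with the not-unique entry (rho = 0.60, r = 0.56, adjusted p = 1.50e-04 and 7.12e-04 by permutation) and with Gm15564 (rho = 0.54, r = 0.40, adjusted p = 0.00105 and 0.0211), and less closely with Lars2 (rho = 0.38, r = 0.34, adjusted p = 0.0275 and 0.0462). Without the 2 farthest libraries r was 0.72, 0.63 and 0.53. Without the 5 libraries with the most not-unique alignments, r was 0.13 for the not-unique entry, 0.11 for Gm15564 and -0.00 for Lars2. There rho was 0.47, 0.39 and 0.20 (adjusted p = 0.0127, 0.0384 and 0.362 by permutation). Tph2-/- MS replicate 8, with 142 CPM and the lowest not-unique value of 0.111, stayed in. Which libraries carry the linear relations was not tested. Within the 6 groups rho was 0.52 for the entry, 0.49 for Gm15564 and 0.30 for Lars2, the last with an adjusted p of 0.103 by permutation.

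No relation of Gm42418 with another member passed the test in the 42 low libraries. The rank correlation was 0.17 with Lars2, 0.19 with Gm15564, 0.21 with CT010467.1 and -0.22 with ENSMUSG00000089855, with adjusted permutation p-values from 0.240 to 0.314. With the not-unique entry rho was 0.32 (adjusted p = 0.0645 by permutation) and r was 0.40 (adjusted p = 0.0211), and r was 0.30 without the 2 farthest libraries (adjusted p = 0.0950). ENSMUSG00000089855 varied with Lars2 (rho = 0.45, r = 0.45, adjusted p = 0.00747 and 0.00822 by permutation) and with Gm15564 (rho = 0.38, r = 0.35, adjusted p = 0.0275 and 0.0399), with r of 0.47 and 0.40 without the 2 farthest libraries. Within the 6 groups these values were no longer past the threshold (rho = 0.31 and 0.24, adjusted p = 0.103 and 0.179 by permutation).

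Mir6236, a short RNA, was the gene most like 4 of the 5 members over all 48 libraries, with a rho of 0.91 with Lars2, 0.90 with Gm15564, 0.60 with ENSMUSG00000089855 and 0.47 with Gm42418. In the 42 low libraries these values were 0.87, 0.87, 0.41 and 0.21, and for Gm42418 Med22, a protein-coding gene among its 5 nearest, had 0.36 there and 0.37 over all 48. For Lars2 and Gm15564 the next were Gm23935, Gm24187, Gm24270 and Gm25732, which like Mir6236 are annotated as miRNA genes. Gm24270 on chromosome 9 and Gm23935 on chromosome 16 have the same 57 bases, and Gm24187 on chromosome 13 differs by 1, marked by the capital. The mature miRNA of Mir6236 (RefSeq, GRCm38) is given with its seed in capitals.
Gm23935, chr16:11144125-11144181, plus strand: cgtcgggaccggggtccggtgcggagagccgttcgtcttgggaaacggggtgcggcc
Gm24270, chr9:56223715-56223771, minus strand: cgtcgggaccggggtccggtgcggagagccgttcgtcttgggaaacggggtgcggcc
Gm24187, chr13:9834469-9834525, minus strand: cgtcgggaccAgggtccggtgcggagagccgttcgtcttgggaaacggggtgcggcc
mmu-miR-6236, chr9:110281353-110281371, plus strand: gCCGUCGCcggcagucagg
CT010467.1 had another company. Its nearest genes were Ppat, an enzyme of purine synthesis, with rho of 0.54, BC037039 with 0.51 and Gm37335 with 0.50, and these values were 0.66, 0.69 and 0.68 in the 42 libraries. The correlations are descriptions over libraries that share depth and make-up.

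Single-library peaks of this kind were also counted over all genes. Of 123 genes that reached 1000 counts in any library, 8 had a highest library at least 20-fold above their median, which is 6.50%. Gm42418, ENSMUSG00000089855, Gm15564, Mir6236 and Gm25732 reached 1000 counts in high libraries only. The limit, the ratio and the choice of the members thus rest on the same peaks, and the share is a description. They were the 5 members, with ratios of 16708 for Gm42418, 237 for ENSMUSG00000089855, 44.8 for Lars2, 36.2 for CT010467.1 and 23.6 for Gm15564, and Mir6236 with 63.7, mt-Rnr2 with 37 and Gm25732 with 31.9. The next in order, well below this limit, were Gm24187 with 6.34, Gm23935 with 6.14 and Gm24270 with 5.91. By mean count Gm42418 ranked first and Lars2 second of the 32235 genes with a count, whereas by median count Gm42418 ranked 446 and Lars2 stayed second.

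The 2 mitochondrial rRNA genes differed. mt-Rnr2, the large-subunit rRNA, held 20326 counts in Tph2+/- C replicate 2 and 17997 in Tph2+/+ C replicate 1, and 4 of the 6 high libraries lay above all 42 others, which had 75 to 1566. mt-Rnr1, the small-subunit rRNA, had 9 and 8 counts in the same libraries, and none of the 6 lay above the others, which had 7 to 83. Of 358 other genes listed as rRNA or rRNA-like, 137 had a count, and mt-Rnr2 was the only one above the 42 in at least 4 of the 6 high libraries. Gm26917, the neighbour of Gm42418 on the same strand, had 1 to 22 counts, with 22 and 17 in the 2 highest libraries. AA474408, which shares the 30 bases with Lars2, had 17 and 12 counts there against 18 to 49 in the low libraries. Rn7sk and 6 other small structural RNAs, 12 satellite-like genes and 12 genes of RNA polymerase I and its factors gave no gene above the 42 in at least 4 of the 6 high libraries.

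No difference between groups in the ranks of the members passed the test. Over 5 members and 9 pairs of groups, none of 45 comparisons passed the threshold (exact permutation test of U, two-sided, smallest p = 0.0379, smallest adjusted p = 0.736, and 1 comparison below an unadjusted 0.05). With 8 against 8 mice the smallest p this test can give is 1.55e-04. The smallest p was for Gm42418 in Tph2+/- mice, with a median of 6.61 CPM under MS and 21.5 in C. No pair of groups was free of overlap for any member.

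The fit across all 32235 genes gave many calls on the same counts. Because the members were chosen by the peaks that enter these fits, their calls are a description and no independent test of MS. By edgeR's quasi-likelihood test, adjusted after Benjamini and Hochberg, all 5 members were called lower under MS in Tph2+/+ mice, where 0.465% of all genes were called in either direction. Their log2 fold changes were -3.97 for Gm42418, -4.08 for ENSMUSG00000089855, -2.66 for Lars2, -2.32 for CT010467.1 and -2.15 for Gm15564. In Tph2+/- mice, where 0.0931% of genes were called, 4 members were called lower, with -12.00 for Gm42418, -4.99 for ENSMUSG00000089855, -3.19 for Lars2 and -2.39 for Gm15564, while CT010467.1 was at -0.34 (adjusted p = 0.413 by edgeR). In Tph2-/- mice, where 0.0372% were called, the same 4 were called lower, with -8.63, -2.57, -1.25 and -0.64, and CT010467.1 was at 0.28 (adjusted p = 0.758 by edgeR). The control groups of these contrasts hold 5 of the 6 high libraries.

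The interactions of genotype with rearing were fitted on the same libraries. GE1, the MS effect in Tph2+/- minus that in Tph2+/+ mice, called 0.543% of all genes and 3 members, with log2 values of -8.02 for Gm42418, 1.98 for CT010467.1 and -0.91 for ENSMUSG00000089855. Lars2 was at -0.53 and Gm15564 at -0.23 (adjusted p = 0.111 and 0.832 by edgeR). GE2, the same with Tph2-/- mice, called 0.0465% and all 5 members, with -4.66 for Gm42418, 2.60 for CT010467.1, 1.41 for Lars2, 1.51 for Gm15564 and 1.52 for ENSMUSG00000089855. GE1 and GE2 share the Tph2+/+ libraries and so are not independent of each other.

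These calls depended on the libraries and genes in the fit. The shares of all genes called in the alternative fits are not given here, so their counts of members are a description. With edgeR's filter on low counts, which kept 6769 genes, and with its robust fit, 0 of 5 members were called in each of the 5 contrasts. Under that filter 247 to 539 genes were below an unadjusted 0.05 by contrast. Without the 4 highest Gm42418 libraries, Lars2 under MS in Tph2+/+ mice was at 0.07 in place of -2.66 and Gm15564 at 0.26 in place of -2.15 (adjusted p = 0.967 and 0.691 by edgeR). GE1 of Gm42418 turned from -8.02 to 3.63. Without all 6 high libraries the edgeR fit still called Gm42418 lower under MS in Tph2+/+ and Tph2+/- mice, at -0.43 and -1.04 (adjusted p = 0.0293 and 1.79e-20), and in Tph2-/- mice it was at 0.22 (adjusted p = 0.816), while the ranks of the same 42 libraries gave no adjusted p below 0.463 by exact permutation. Without Tph2+/+ C replicate 8, GE1 of CT010467.1 turned from 1.98 to -0.31 (adjusted p = 0.777 by edgeR). DESeq2, which replaced single outlying counts in groups of this size and did so for all 5 members, called Gm42418 alone in Tph2+/+ and in Tph2-/- mice, at -4.44 and -4.67, and no member in Tph2+/- mice, GE1 or GE2.

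**Figure D5:**
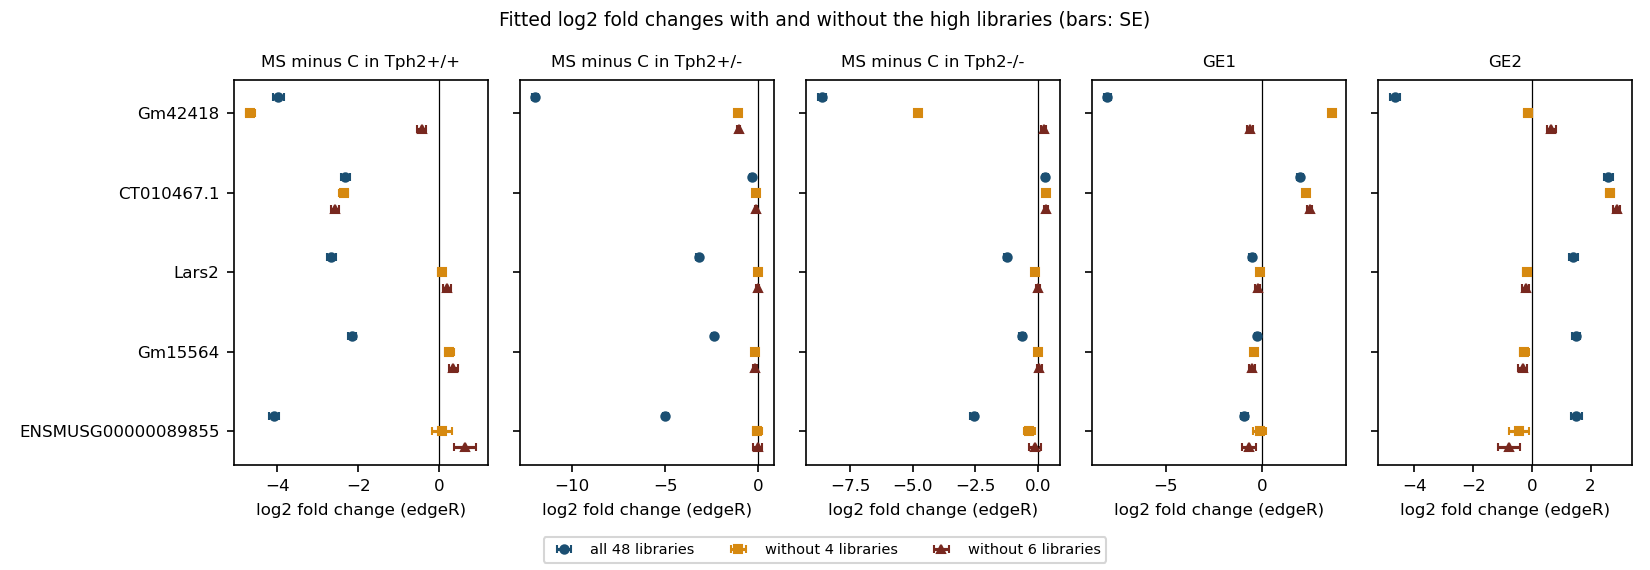
Log2 fold changes fitted by edgeR (x axis, bars are SE) for the 5 members (y axis) in 5 contrasts, each with all 48 libraries, without the 4 highest Gm42418 libraries, and without all 6 high libraries. Lars2 and Gm15564 move from values such as -2.66 and -2.15 to near 0 once the libraries are left out.

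Of the genes named with rRNA or with the pathways above, few passed the same edgeR fit. Of those named next only Gm10801 was still called in the robust fit, in Tph2+/- mice and in GE1. Its counts were 0 to 28, with a median of 2, and the low-count filter left it out. mt-Rnr2 was called lower under MS in all 3 genotypes, with log2 fold changes of -2.78 in Tph2+/+, -3.30 in Tph2+/- and -1.39 in Tph2-/- mice, and it is the 1 gene called of 137 rRNA-listed genes tested in each, beside 0.465%, 0.0931% and 0.0372% of all genes. It was also called in GE1 at -0.52 and in GE2 at 1.39 (adjusted p = 0.0490 and 5.02e-18 by edgeR). Without the 6 high libraries the values in the 3 genotypes were -0.54, -0.35 and -0.33 (adjusted p = 1.16e-04, 0.152 and 0.816 by edgeR), and those of GE1 and GE2 were 0.20 and 0.22 (adjusted p = 0.943 and 1 by edgeR). It was called in no contrast with the low-count filter or the robust fit. None of the 12 genes of the RNA polymerase I list, such as Polr1a, a catalytic subunit, and Ubtf, an activator of rRNA gene transcription, was called in any contrast, with medians from -0.33 to 0.11 against -0.01 to 0.00 over all genes. Of 16 mitochondrial aminoacyl-tRNA synthetases other than Lars2, only Fars2 was called, higher under MS in Tph2+/+ mice (log2 fold change 1.69) and lower in GE1 (-2.46). Of 11 satellite-like genes tested, Gm10800, Gm10801 and Gm10718 were called lower under MS in Tph2+/- mice, with -2.03, -2.55 and -2.52, and all 3 were called in GE1, with -2.09, -3.15 and -2.96. Over all genes 0.0931% were called in Tph2+/- mice and 0.543% in GE1. Gm10800 was also called lower in Tph2-/- mice, at -0.80. Of 6 small structural RNAs tested, Rn7sk was called in GE1 at -0.96. Without the 6 high libraries Gm10718 and Rn7sk were no longer called in GE1, with -2.56 and -1.02 (adjusted p = 0.279 and 0.0581 by edgeR). Counts of these genes were low, with medians of 30.5 for Gm10800, 2 for Gm10801, 1 for Gm10718, 6 for Fars2 and 18.5 for Rn7sk. The low-count filter left out Gm10718 as well as Gm10801. With that filter Gm10800, Fars2 and Rn7sk were called in no contrast.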

How the data were processed

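RNA was measured in 48 libraries. Per the labels, stranded total RNA libraries were read as pairs of 125 bp, and the processing notes of the authors name STAR, HTSeq and DESeq2 and the build GRCm38.p5. The deposited values are raw counts per Ensembl gene with HTSeq's 5 special entries, not normalized, and the annotation and strand setting are not given in the sources used here. The entries for low quality and for pairs not aligned, are 0 throughout.

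The members and lists were chosen with earlier results of these data known. Placed pairs are the sum of gene counts, no-feature and ambiguous pairs, and levels are CPM, counts per 1000000 placed pairs. Positions and transcripts are from GENCODE M21, which holds 48058 of the 48440 genes and is on GRCm38. The genes most like a member are the 5 with the highest Spearman rho among 5645 genes with a mean of at least 10 counts. Where sorted values of a member showed a gap of 10-fold or more, libraries above it were treated as a separate cluster.

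Groups were compared by exact two-sided permutation of U, adjusted over 45 and over 9 comparisons, and relations by 100000 permutations, adjusted over 15. All 32235 genes with a count, with Lars2, which the study had left out of its own test, included, were fitted with edgeR 4.0.16 in R 4.3.3 (TMM, 1 coefficient per group, quasi-likelihood test, adjusted p below 0.05), and DESeq2 1.42.0 was an alternative. The steps were tested on simulated data. Those tests do not show that calls of edgeR's main fit hold for genes with single-library peaks, such as the members. Python 3.11.15, NumPy 2.4.6, SciPy 1.17.1, pandas 2.3.3 and matplotlib 3.10.9 were used. Leaving out the 6 libraries above the gap, or Tph2+/+ C replicate 8, was chosen after seeing the data, as were the denominators without the members and the refits of the list genes.

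Samples with the same replicate number did not deviate together: over genes other than the members, 17 of 72 such pairs correlated above 0.1, with a median of -5.58e-04, so the numbers were not taken to pair mice. No 2 libraries of a group agreed within sampling noise (chi-square per degree of freedom at least 1.51 over 168 pairs). Litters are not given, so the permutation p-values take mice as units, some of which may be littermates. The p-values and SE of edgeR's main fit do not measure the spread between mice for the members. For Gm42418 under MS in Tph2+/+ mice that SE was 0.13. In the controls of this contrast 1 library dominated a mean of 22057 ± 61812 CPM (SD, n = 8). The ranks of the same 2 groups gave p = 0.279 by exact permutation. The depth of 23759782 to 35264808 placed pairs makes 3 counts equal to 0.0851 to 0.126 CPM, for counting error only.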

Additional observations from a re-analysis of the deposited data

Results flagged for a closer look

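Values far from the other 7 of their group, by Dixon's test at the 95% level, were found in 18 of 36 sets of 8 libraries (5 members and the not-unique entry in 6 groups), where chance flags about 1 in 20. The genes were chosen for such peaks, so this count is a description and cannot be set against chance. All 18 were the highest of their group. The scale is CPM.

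In Tph2+/+ C replicate 1, Gm42418 was at 175030, Lars2 at 50086, Gm15564 at 257 and ENSMUSG00000089855 at 127. In Tph2+/- C replicate 2 the same 4 genes were at 162267, 42817, 209 and 70.4. In Tph2-/- C replicate 1 they were at 30889, 10098, 47.0 and 17. In Tph2+/+ MS replicate 2 they were at 18204, 7402, 36.3 and 8.53. CT010467.1 stood apart in a different library, Tph2+/+ C replicate 8, at 3005. Gm42418 also stood apart in Tph2-/- MS replicate 2, at 32.7. The not-unique entry stood apart in no group.

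edgeR's interaction term was called for 8 of the 10 values of the members, in fits that hold the peaks by which they were chosen. Over all genes the term was called for 0.543% in GE1 and 0.0465% in GE2. In GE1 the log2 values were -8.02 for Gm42418, 1.98 for CT010467.1 and -0.91 for ENSMUSG00000089855. In GE2 they were -4.66 for Gm42418, 2.60 for CT010467.1, 1.41 for Lars2, 1.51 for Gm15564 and 1.52 for ENSMUSG00000089855. None of these calls was made with edgeR's filter on low counts or with its robust fit.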

How the results depend on the processing

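The rank comparisons gave 0 of 45 members' comparisons and 0 of 9 of the not-unique entry past the threshold under each alternative run, and 7 to 9 of 15 relations passed by rho, against 8, and 6 to 11 by r, against 8, where relations of Gm42418 leave out its 6 high libraries, those of CT010467.1 its 1 peak, and the others none. Over the 42 low libraries 8 passed by rho and 9 by r, without the 2 farthest libraries 8 and 8, and by ranks within groups 5 and 5. Without the 5 libraries with most not-unique alignments 7 passed by rho and 4 by r, and the r values that lost their call were those of CT010467.1 with Lars2, Gm15564 and the not-unique entry, Gm15564 with ENSMUSG00000089855, and Gm42418 with the not-unique entry. Of 90 alternative rho values of the former kind, 2 lost and 2 gained a call, and 2 that passed in neither setting changed sign: Gm42418 with ENSMUSG00000089855 from -0.22 to 0.18 over all 48 libraries, and ENSMUSG00000089855 with the not-unique entry from 0.13 to -0.02 by ranks within groups. Of 250 alternative log2 fold changes, 75 lost their call, 1 gained one and 28 with a call reversed. The values below are by edgeR unless named otherwise, in the order Tph2+/+, Tph2+/-, Tph2-/-, GE1 and GE2 for counts of called members, which were 5, 4, 4, 3 and 5. Without the share of all genes called in each run, which is not given here, these counts are no result about the members. The cause of each change was not tested.

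With the low-count filter and with the robust fit the counts were 0 throughout. DESeq2 gave 1, 0, 1, 0 and 0. It reversed Lars2 (0.07), Gm15564 (0.66) and ENSMUSG00000089855 (0.09) in Tph2+/+, Gm42418 (3.45) and CT010467.1 (-0.38) in GE1, and Lars2 (-0.21), Gm15564 (-0.68) and ENSMUSG00000089855 (-0.42) in GE2. Without the 4 highest Gm42418 libraries the counts were 2, 1, 1, 2 and 1. Reversed were Lars2 (0.07), Gm15564 (0.26) and ENSMUSG00000089855 (0.08) in Tph2+/+, Gm15564 (0.01) in Tph2-/-, Gm42418 (3.63) in GE1, and Lars2 (-0.18), Gm15564 (-0.25) and ENSMUSG00000089855 (-0.43) in GE2. Without all 6 the counts were 2, 1, 0, 2 and 1. Reversed were Lars2 (0.20), Gm15564 (0.35) and ENSMUSG00000089855 (0.65) in Tph2+/+, Gm42418 (0.22) and Gm15564 (0.05) in Tph2-/-, and Gm42418 (0.66), Lars2 (-0.21), Gm15564 (-0.31) and ENSMUSG00000089855 (-0.78) in GE2. CT010467.1 in GE1 reversed without Tph2+/+ C replicate 8 (-0.31, with 1 member called in GE1) and without the 7 controls of the highest ID numbers (-0.30, with 3 called in GE2).

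With the replicate block 3 members were called in GE2 and Gm42418 turned to 1.08 there. The replicate numbers are only names here, since 6 of 48 samples correlated best with their own number.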
